A study of Mus musculus with 16 samples.

Results

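The genes of ketone body use were taken by symbol from the deposited tables of gene reads, and all 6 of them, Oxct1, Bdh1, Acat1, Bdh2, Slc16a1 and Slc16a3, were found among 48526 genes. They were chosen by their role and with the measured differences between mutants and controls of these embryos already known, so their differences between mutants and controls are given as a description with no p-value. The series profiled RNA from the microdissected heart region of C57BL/6J mouse embryos at E8.5, when the linear heart tube begins to loop, in 2 lines that carry alleles of Greb1l, a gene known to be needed for kidney development. Line G3 had 4 embryos of genotype Greb1lem1Cjean/em1Cjean and 4 WT littermates, and line G17 had 4 embryos of genotype Greb1lex17/ex17 and 4 WT littermates. The labels name no agent or dose, each library is 1 embryo, and nothing in the labels says how many litters or founders stand behind a group, so the spread below is the spread between these embryos.

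Ketone bodies, acetoacetate and 3-hydroxybutyrate, are small fuels that the liver makes from fatty acids and that the heart, brain and muscle burn. Inside mitochondria BDH1 turns 3-hydroxybutyrate into acetoacetate, OXCT1 (also called SCOT) transfers coenzyme A from succinyl-CoA onto acetoacetate, and ACAT1 splits the product into acetyl-CoA for the tricarboxylic acid cycle. The OXCT1 step sets the rate of ketone use and is nearly absent from liver, and the adult heart is among the tissues known for high OXCT1 activity. Ketone bodies, lactate and pyruvate cross the cell membrane through the same monocarboxylate transporters, of which MCT1 (Slc16a1) can carry them both ways and MCT4 (Slc16a3) is known for exporting lactate from glycolytic cells.

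The libraries held 32391421 to 49353025 reads in genes, and 18002 to 22689 genes had a read. All 12 cardiomyocyte markers were present in every embryo, with summed levels of 137386 to 262938 normalized reads. A set of 10 markers of yolk sac endoderm, a tissue outside the heart, differed more between embryos, from 25220 to 95553 summed normalized reads in G3 controls, 7112 to 31653 in G3 labelled mutants, 36203 to 261986 in G17 controls and 10204 to 53140 in G17 mutants. Of those 10 markers, 7 were lower in G17 mutants and 0 passed in G3 (limma, adjusted p under 0.05). The highest sum belonged to G17 control 29, the same embryo that had the lowest cardiomyocyte sum. Of the 12 cardiomyocyte markers, 1 was higher in G3 and 0 passed in G17. In each list for endothelium, foregut endoderm, neural tube, primitive erythrocytes and hepatocytes, at most 1 gene of that list passed in a line. In bulk tissue, fewer cells of a type and less RNA per cell cannot be told apart. Greb1l itself fell from 9818 ± 508 normalized reads in G17 controls to 4215 ± 961 in G17 mutants, but stood at 10984 ± 1319 in G3 controls and 20144 ± 3377 in the G3 embryos labelled mutant (mean ± SD, n = 4 each). Every direction given for G3 therefore rests on the labels.

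Oxct1 (ENSMUSG00000022186, GRCm38 chr15:4026383-4155344, plus strand) was higher past the threshold in the mutants of both lines, by 2.24-fold in G3 and 6.50-fold in G17, and none of the other 5 genes was past it as higher in either line. In G3 controls 16, 18, 20 and 21 it had 668, 811, 693 and 774 normalized reads, and in G3 labelled mutants 23, 29, 30 and 31 it had 1506, 1532, 1656 and 1903. The G17 controls 20, 29, 35 and 37 had 674, 471, 742 and 846 normalized reads, and the G17 mutants 33, 36, 41 and 42 had 3951, 4426, 4693 and 4712. In both lines the lowest mutant stood above the highest control, as groups that do not overlap were found for 11.5% of tested genes in G3 and 9.93% in G17, and every G17 mutant stood above every G3 labelled mutant, also with all libraries scaled together, since the tables of the lines were normalized separately. The lowest value of all, 471, was that of G17 control 29.

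In G3 the mean of Oxct1 went from 737 ± 67.2 to 1649 ± 182 normalized reads (SD, n = 4 each), a log2 fold change of 1.16 ± 0.12 (SE, on the log2 scale of normalized reads + 1). Single G3 labelled mutants were 2.04, 2.08, 2.25 and 2.58 times the mean of their controls. In G17 the mean went from 683 ± 158 to 4446 ± 355 (SD, n = 4 each), a log2 fold change of 2.73 ± 0.16 (SE), and single mutants were 5.78 to 6.89 times the control mean. A mean that was at least 5-fold higher in mutants was found for 0.881% of the genes tested in G17, and one at least 2-fold higher for 4.86% in G3. Among genes with a mean of at least 100 normalized reads in the mutants, Oxct1 ranked 45 of 12810 by log2 fold change in G17 and 193 of 12699 in G3. These values chose the gene and support nothing further.

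**Figure D1:**
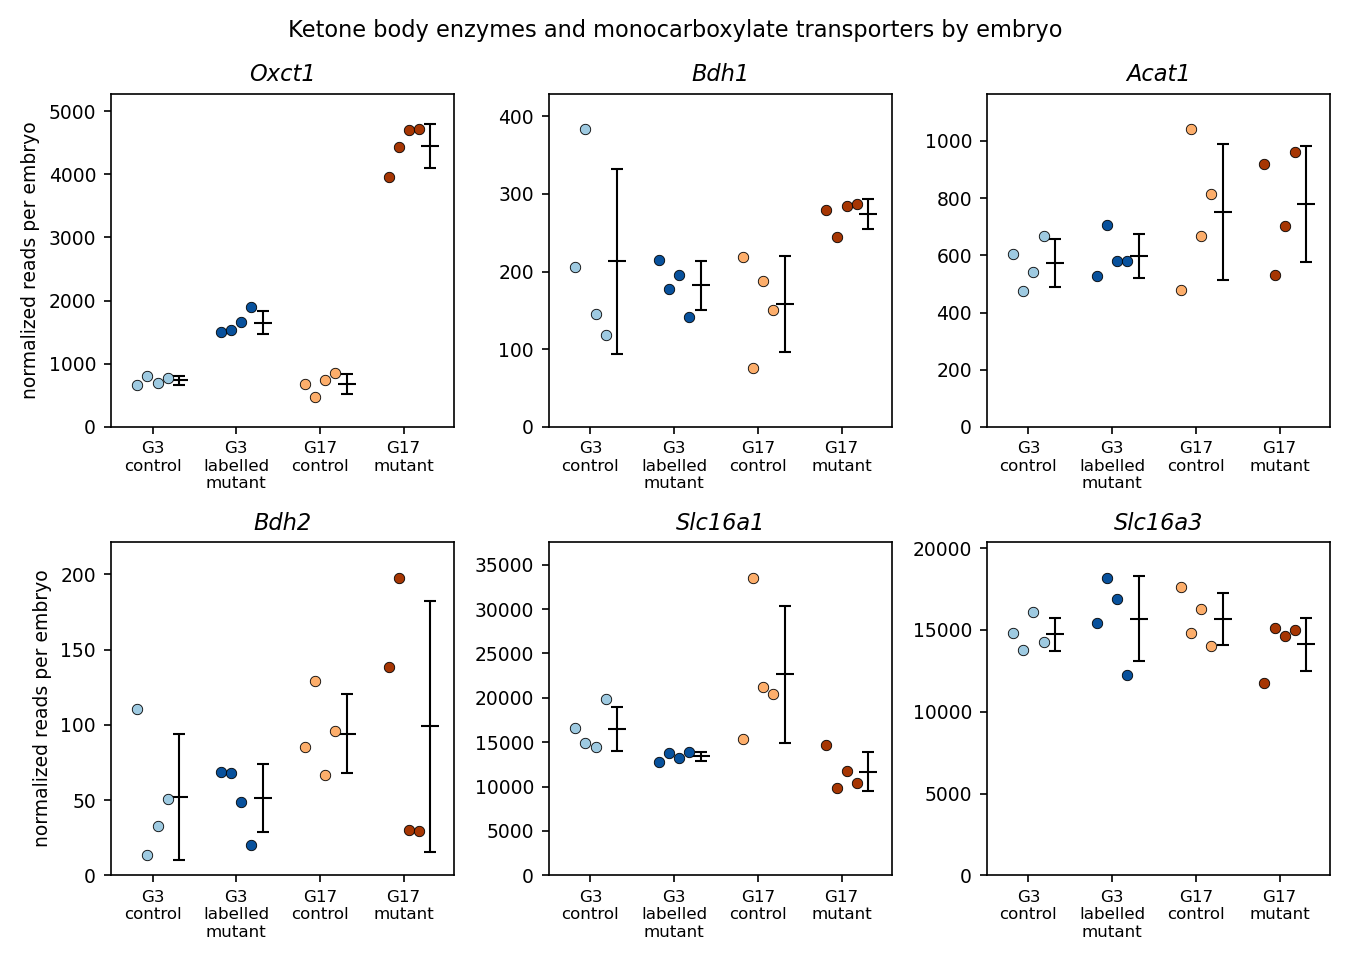
Normalized reads of the 6 genes (vertical axes, each from 0) in each embryo (points) of the 4 groups, with the mean and SD of each group as a black bar. Oxct1 shows 3 levels, about 700 in both control groups, 1506 to 1903 in G3 labelled mutants and 3951 to 4712 in G17 mutants, while Acat1 and Slc16a3 show overlapping groups and Slc16a1 is lower in the mutants.

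The size of the Oxct1 difference was not alike in the lines. Oxct1's log2 fold change was larger in G17 by 1.57 ± 0.20 (SE), and Oxct1 and Greb1l were the 2 genes of 20010 past the threshold in that comparison (0.01%), Oxct1 as larger and Greb1l as smaller in G17 (0.005% each). With all 16 libraries scaled together, the mean of the G17 mutants was 2.68 times that of the G3 labelled mutants, and the mean of the G17 controls was 0.921 times that of the G3 controls. RPKM, the reads scaled to transcript length in kilobases and to library depth, placed Oxct1 at 4.75 in G3 controls, 10.8 in G3 labelled mutants, 4.36 in G17 controls and 29.04 in G17 mutants. Among genes of at least 1 RPKM this was above 38.1% and 35.03% of genes in the control groups of G3 and G17, and above 62.4% and 86.3% in their mutants.

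Median sums of the yolk sac and cardiomyocyte markers differed between mutants and controls in both lines, and the Oxct1 difference was refitted beside them. Because these scores go partly with the genotype, such a fit cannot fully separate the score from the genotype. With a score of the yolk sac markers added to the fit, the log2 fold change of Oxct1 was 1.19 in G3 and 2.42 in G17. With the cardiomyocyte score added it was 1.09 in G3 and 2.58 in G17. Without G17 control 29 it was 2.56.

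**Figure D2:**
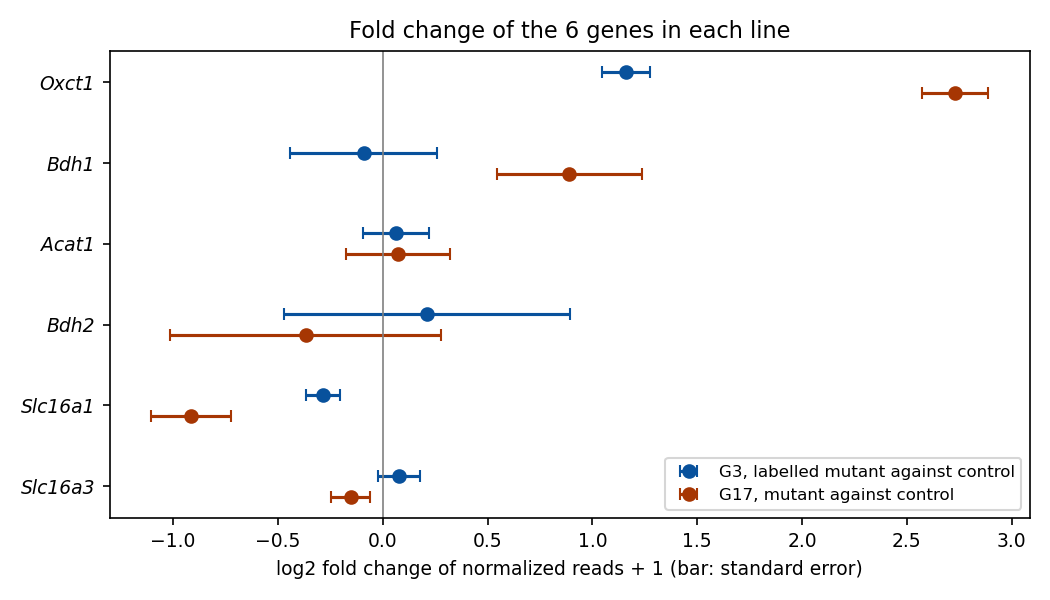
Log2 fold change of the 6 genes in each line (horizontal axis), with the standard error as a bar. Oxct1 lies at 1.16 in G3 and 2.73 in G17, Slc16a1 lies below 0 in both lines, and the bars of Acat1 and Bdh2 cross 0 in both.

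A transcript on the other strand runs across the annotated start of Oxct1, and its own start lies inside the Oxct1 gene. BC037032 (ENSMUSG00000087221, chr15:4020114-4027405, minus strand, a processed transcript of no stated function) overlaps the first exon of Oxct1. It was looked at after its values were seen. The 300 bases around each start (250 before it and the first 50 transcribed), as RefSeq gives them on GRCm38.p6, are printed here because reads assigned to both genes were higher in mutants, with the window of Slc16a1, the gene that stood lower, for comparison. Capitals mark the bases transcribed from the RefSeq start. For Oxct1 this start lies inside the gene coordinates given above.
Oxct1, chr15:4026178-4026477, plus strand: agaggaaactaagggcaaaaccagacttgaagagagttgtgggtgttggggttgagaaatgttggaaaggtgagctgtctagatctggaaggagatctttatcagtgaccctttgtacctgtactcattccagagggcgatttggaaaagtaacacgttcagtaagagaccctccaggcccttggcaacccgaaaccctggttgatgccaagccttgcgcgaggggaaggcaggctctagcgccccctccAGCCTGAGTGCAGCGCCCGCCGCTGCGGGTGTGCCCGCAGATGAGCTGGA
BC037032, chr15:4027357-4027656, minus strand: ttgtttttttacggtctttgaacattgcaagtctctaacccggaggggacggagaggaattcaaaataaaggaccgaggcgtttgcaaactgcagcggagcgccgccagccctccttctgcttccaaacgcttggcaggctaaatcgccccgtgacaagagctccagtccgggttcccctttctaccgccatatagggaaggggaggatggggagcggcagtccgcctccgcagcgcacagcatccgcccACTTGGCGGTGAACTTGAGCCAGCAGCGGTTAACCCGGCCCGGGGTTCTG
Slc16a1, chr3:104638414-104638713, plus strand: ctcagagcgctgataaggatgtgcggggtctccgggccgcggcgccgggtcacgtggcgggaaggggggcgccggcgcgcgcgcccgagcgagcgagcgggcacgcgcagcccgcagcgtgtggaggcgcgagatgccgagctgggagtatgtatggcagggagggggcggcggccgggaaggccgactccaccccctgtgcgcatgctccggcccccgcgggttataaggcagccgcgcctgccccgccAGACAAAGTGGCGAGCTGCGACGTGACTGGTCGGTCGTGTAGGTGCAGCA

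The Oxct1 window has a GC content of 55.3% with 11 CG dinucleotides, and that of BC037032 has 59% with 22. The Slc16a1 window is far richer, with 73.7% and 42, above 94.9% of the 32851 windows of the table, whose median is 52.7% with 7. A set of 6 short motifs were searched on both strands: AGGTCA, the site of a single nuclear receptor; TNAAGGTCA, the extended form bound by estrogen-related receptors, which contains the first; CACGTG, the E-box of MYC and USF proteins; GGGCGG, the GC box; CCAAT; and TATAAA. The Oxct1 window holds 0 of the 6. GGGCGG stands 6 bases before the start of BC037032 and 85 before that of Slc16a1, and CACGTG stands 200 bases before that of Slc16a1. Of all windows, 35.7% hold GGGCGG, 7.15% CACGTG, 16.3% AGGTCA, 1.28% TNAAGGTCA, 37.4% CCAAT and 13.6% TATAAA. A match in these letters is a description of the sequence and not a bound site. Windows were in the table for 5 of the 6 genes.

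BC037032 had 0 reads in all 8 control embryos and reads in all 8 mutants. The G3 labelled mutants 23, 29, 30 and 31 had 27, 22, 11 and 22 reads, or 24.4, 24.1, 14.1 and 18.6 normalized reads. The G17 mutants 33, 36, 41 and 42 had 21, 22, 26 and 102 reads, or 19.4, 20.4, 22.3 and 97.9 normalized reads. G17 mutant 42 stood far above the rest, and the other 7 mutants lay close together. A floor of 3 reads per control library is the limit a count of 0 allows. The mutant mean was 6.93 times this floor in G3 and 12.3 times in G17, or 6.39 times without G17 mutant 42. The gene was picked for these values, and the counting error of the mutants is left out, so the folds are a description.

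In the test over all genes BC037032 missed the threshold in each line (limma, adjusted p = 0.0937 in G3 and 0.0755 in G17). It passed the filter on low values through the mutants alone and was picked for its values, so these tests support no difference. The call turned with the tool: edgeR on the recovered reads gave adjusted p = 0.0614 in G3 and 0.0486 in G17, and the authors' deposited table gives 0.00399 and 0.000215. The strand setting of the counting is not given, so reads of BC037032 and of Oxct1 RNA cannot be told apart where they overlap. Gm15632, an antisense gene inside Oxct1, had 0 reads in every embryo. The other tested neighbours within 500 kb, Fbxo4, AW549877, Plcxd3 and Ghr, did not pass in either line.

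**Figure D3:**
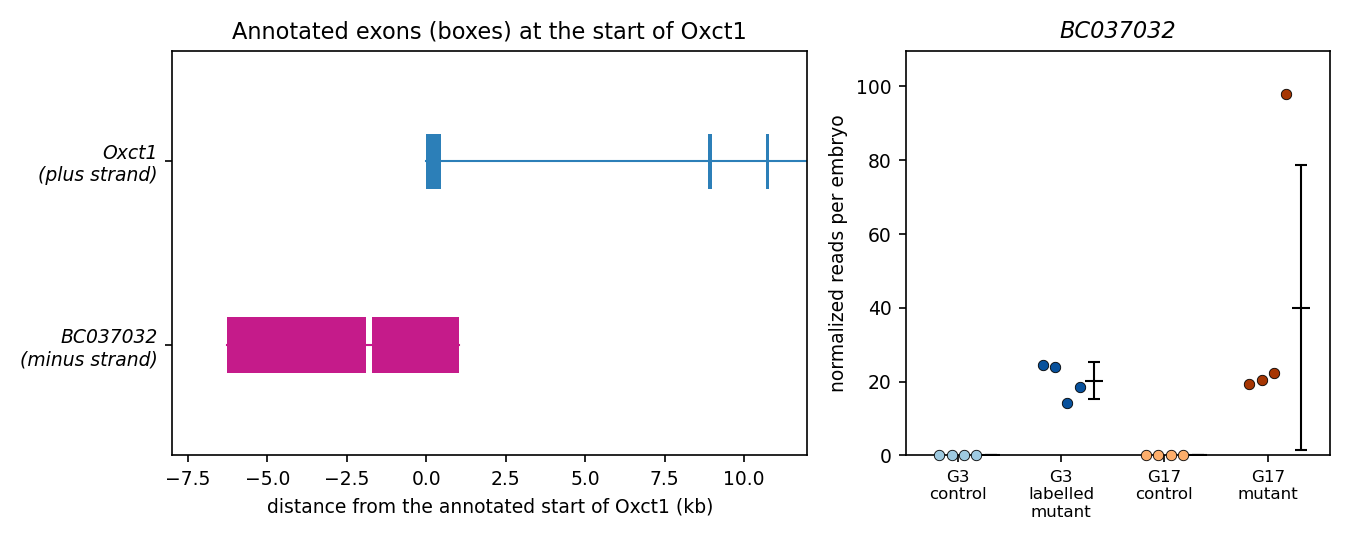
Left, annotated exons (boxes) of Oxct1 and BC037032 by distance in kb from the annotated start of Oxct1, with each gene on its own row. Right, normalized reads of BC037032 in each embryo (points) with the mean and SD of each group as a black bar; all 8 controls are at 0 and the mutants lie between 14.1 and 97.9.

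The 2 mitochondrial enzymes on either side of OXCT1 were not past the threshold in either line. Bdh1 (ENSMUSG00000046598, chr16:31422280-31458901, plus strand), which feeds acetoacetate to OXCT1, had 206, 383, 145 and 118 normalized reads in G3 controls 16, 18, 20 and 21. G3 labelled mutants 23, 29, 30 and 31 had 215, 177, 196 and 141, all within the range of their controls. G17 controls 20, 29, 35 and 37 had 219, 75.6, 187 and 151, and G17 mutants 33, 36, 41 and 42 had 279, 245, 285 and 287. In G17 the groups did not overlap, a pattern that 9.93% of the tested genes shared. The log2 fold change was -0.09 ± 0.35 in G3 and 0.89 ± 0.35 in G17 (SE), neither of them past the threshold. With the yolk sac score added the G17 value was 0.26. Gm15743, an antisense gene that shares exon sequence with Bdh1, had 0 reads in all controls. It had 0 to 16.1 normalized reads in G3 labelled mutants and 0 to 14.8 in G17 mutants, and fell below the filter on low values.

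Acat1 (ENSMUSG00000032047, chr9:53580522-53610382, minus strand), the thiolase of the last step, overlapped between genotypes in both lines. Its values were 605, 476, 541 and 669 normalized reads in G3 controls 16, 18, 20 and 21, and 526, 706, 582 and 580 in labelled mutants 23, 29, 30 and 31. They were 479, 1041, 667 and 814 in G17 controls 20, 29, 35 and 37, and 921, 530, 704 and 963 in mutants 33, 36, 41 and 42. G17 control 29, with the highest yolk sac sum, was also the highest of all embryos for Acat1. The log2 fold change was 0.07 ± 0.16 in G3 and 0.07 ± 0.25 in G17 (SE), and with the yolk sac score added 0.27 and 0.90.

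The enzymes could be set against each other only per length. The ratio of Oxct1 to Acat1 in RPKM went from 1.33 ± 0.27 in G3 controls to 2.83 ± 0.47 in G3 labelled mutants and from 1.02 ± 0.41 in G17 controls to 6.15 ± 1.86 in G17 mutants (SD, n = 4 each). The lowest mutant ratio in G17, 4.36, was above the highest control ratio, 1.43, and in G3 the same held with 2.20 against 1.73. The ratio of Oxct1 to Bdh1 went from 4.38 to 9.87 in G3 and from 4.96 to 17.1 in G17. The change of each ratio came with the Oxct1 values above and is no separate finding.

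Bdh2 (ENSMUSG00000028167, chr3:135281221-135304426, plus strand), a cytosolic dehydrogenase that can act on 3-hydroxybutyrate and is also known for making the siderophore of mammals, was the lowest of the 6 per length, at 0.29 to 0.56 RPKM in group means. The G3 controls had 110, 13.5, 32.9 and 50.7 normalized reads and the G3 labelled mutants 68.6, 67.8, 48.7 and 20.3. G17 controls had 84.9, 129, 66.9 and 95.6, and the G17 mutants 139, 198, 30.03 and 29.8. The mutants of G17 split into a higher and a lower pair on both sides of the controls. Its log2 fold change was 0.21 ± 0.68 in G3 and -0.37 ± 0.64 in G17 (SE).

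Slc16a1 (ENSMUSG00000032902, chr3:104638668-104658462, plus strand), the gene of MCT1, was lower in the mutants of both lines and passed the threshold in G17 alone. G3 controls 16, 18, 20 and 21 had 16589, 14900, 14479 and 19889 normalized reads, and labelled mutants 23, 29, 30 and 31 had 12822, 13812, 13171 and 13888. G17 controls 20, 29, 35 and 37 had 15316, 33536, 21224 and 20453, and mutants 33, 36, 41 and 42 had 14699, 9857, 11771 and 10364. The groups did not overlap in either line, as for 11.5% of genes in G3 and 9.93% in G17, although G17 control 20 and mutant 33 lay close to each other. The log2 fold change was -0.28 ± 0.08 in G3 and -0.91 ± 0.19 in G17 (SE), where the mutant mean was 0.516 times that of the controls.

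Yolk sac marker sums were set beside the Slc16a1 values. G17 control 29 had both the highest Slc16a1 value and the highest yolk sac sum, 261986 normalized reads, while G17 control 20 was the lowest of its group in both, with a sum of 36203. With the yolk sac score added, Slc16a1 was at -0.14 in G3 and -0.15 in G17, and the G17 call was lost. Without G17 control 29 it was -0.71. The G17 call was also lost with the cardiomyocyte score added, at -0.78, and without control 35, mutant 36, mutant 41 or mutant 42. It held in 12 of 18 alternatives, and in G3 the threshold was passed in 3 of 18. The difference in log2 fold change between the lines was -0.63 ± 0.23 (SE) and did not pass.

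**Figure D4:**
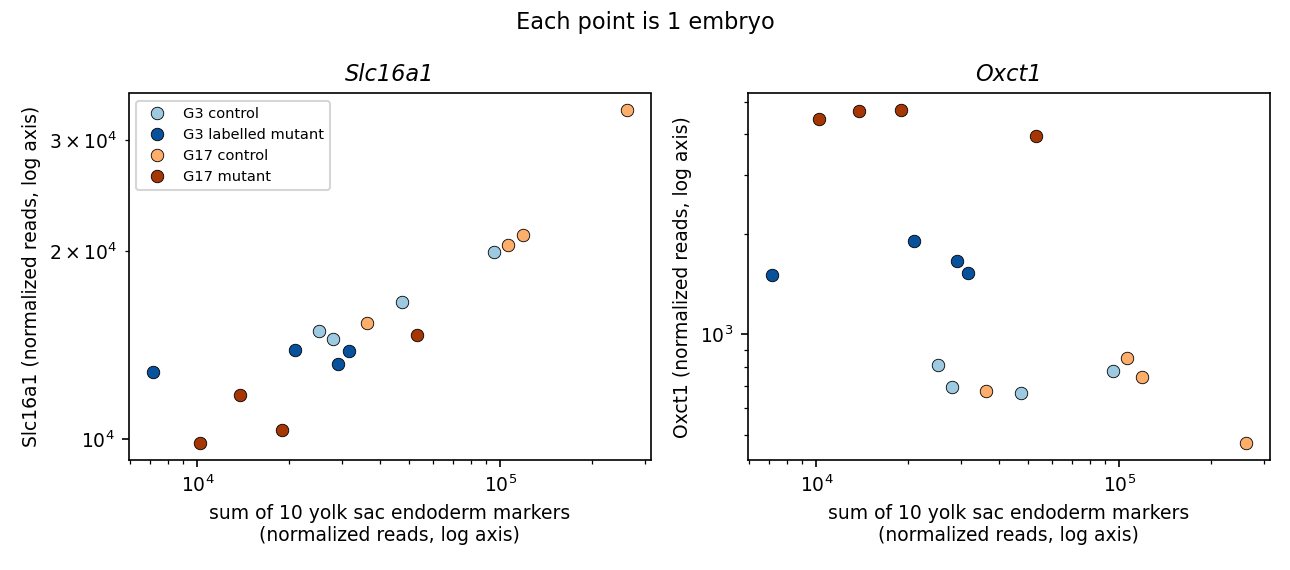
Normalized reads of Slc16a1 (left) and Oxct1 (right) on log axes against the sum of 10 yolk sac endoderm markers on a log axis, 1 point per embryo, coloured by group. Slc16a1 is highest in the G17 control with the highest marker sum, 261986, whereas for Oxct1 the G17 mutants lie above all other embryos over marker sums of 10204 to 53140.

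Slc16a3 (ENSMUSG00000025161, chr11:120948480-120960868, plus strand), the gene of MCT4, had overlapping values in all 4 groups. Its means were 14740 ± 1016 normalized reads in G3 controls, 15695 ± 2572 in G3 labelled mutants, 15675 ± 1605 in G17 controls and 14116 ± 1596 in G17 mutants (SD, n = 4 each). The single values ran from 11744 in G17 mutant 33 to 18191 in G3 labelled mutant 29, and the groups overlapped in both lines. Slc16a3 had log2 fold changes of 0.08 ± 0.10 in G3 and -0.15 ± 0.09 in G17 (SE). Per length, Slc16a1 was above Slc16a3 in the control means, with ratios of 1.35 in G3 and 1.77 in G17, and close to it in the mutants, with 1.05 and 1.02.

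Across the 6 genes, the number past the threshold was 1 higher and 0 lower in G3, where 3.98% of 18025 tested genes were called, 2.35% higher and 1.63% lower. It was 1 higher and 1 lower in G17, where 3.03% of 17706 were called, 1.87% higher and 1.16% lower. For the effect common to both lines it was again Oxct1 as higher and Slc16a1 as lower, beside 9.4% of 20010 genes, 5.01% higher and 4.39% lower. The median log2 fold change over the 6 genes was 0.07 in G3 and -0.04 in G17, beside 0.01 and -0.01 over all tested genes. By level, the transporters stood at 63.7 to 120 RPKM in group means and the enzymes at 0.29 to 29.04.

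The controls of the lines, which the choice of the genes did not rest on, could be tested against each other. None of the 6 genes differed between G17 and G3 controls (limma, Benjamini-Hochberg adjusted p from 0.701 to 0.881, n = 4 each). The difference was -0.15 ± 0.19 on the log2 scale for Oxct1 (adjusted p = 0.881), 0.40 ± 0.18 for Slc16a1 (adjusted p = 0.701) and 1.16 ± 0.62 for Bdh2 (adjusted p = 0.721). Without G17 control 29 the Oxct1 difference was 0.02. The control groups overlapped for all 6 genes, and did not for 4.04% of the genes tested. Of all genes, 0 of 17816 (0%) passed with limma and 0 with edgeR, 47 passed with DESeq2, and 1259 had an unadjusted p under 0.05. At 4 embryos against 4, small differences between the control groups may have been missed.

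The genes around this pathway were read from 7 lists with 107 genes in the tables. Like the 6 members, the lists were chosen with earlier results of these data known. Their counts and p-values, here and below, therefore describe the listed genes and are no independent evidence about the pathway. Of those tested, 6 of 98 were higher and 1 lower in G3, and 7 of 96 were higher and 0 lower in G17, beside 2.35% higher and 1.63% lower of all tested genes in G3 and 1.87% and 1.16% in G17, with list medians of 0.02 and 0.07 on the log2 scale. For the common effect 17 of 101 were higher and 2 lower, beside 5.01% and 4.39% of all tested genes. No listed gene differed between the lines in its mutant effect (limma, 0 of 101, 5 at an unadjusted p under 0.05).

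Among the genes called in the fits of single lines, the largest log2 fold change was that of Ldhb, the lactate dehydrogenase subunit that prevails in heart and favours the turn of lactate into pyruvate. It rose from 1838 ± 130 to 6806 ± 709 normalized reads in G3 (limma, log2 fold change 1.89 ± 0.09, adjusted p = 1.65e-07) and from 1640 ± 197 to 6763 ± 648 in G17 (2.05 ± 0.10, adjusted p = 4.22e-07). The 8 mutants lay between 5839 and 7663 and the 8 controls between 1435 and 2011, and the G3 labelled mutants and G17 mutants overlapped. Ldha, the subunit that prevails in glycolytic tissue, had a log2 fold change of -0.17 ± 0.06 in G17 (limma, adjusted p = 0.142). Ldhb passed in 18 of 18 alternatives in each line. In the list of 16 genes of lactate and pyruvate use, 1 rose in G3 and 2 in G17, beside 2.35% and 1.87% of all tested genes. The other was Pdp2, a pyruvate dehydrogenase phosphatase (limma, 0.67 ± 0.16, adjusted p = 0.0401 in G17; 0.69 ± 0.18, adjusted p = 0.0507 in G3), whose G17 call held in 9 of 18 alternatives and was lost with either marker score and without control 20, 35 or 37 or any single mutant.

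Among 7 tested genes that make ketone bodies or handle the same acyl-CoA, 2 rose in both lines, beside 2.35% of all genes in G3 and 1.87% in G17. Hmgcs1, the cytosolic HMG-CoA synthase of sterol synthesis, went from 5891 to 9200 normalized reads in G3 (limma, log2 fold change 0.62 ± 0.12, adjusted p = 0.0124) and from 5115 to 9511 in G17 (0.91 ± 0.12, adjusted p = 0.00127). Acat2, the cytosolic thiolase, rose by 0.47 ± 0.10 in G3 (limma, adjusted p = 0.0158) and 0.60 ± 0.09 in G17 (adjusted p = 0.00492). Both are known for supplying sterol synthesis and not the mitochondrial ketone pathway, and both calls were lost with the yolk sac score added in both lines, that of Acat2 in G3 also without control 16.

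**Figure D5:**
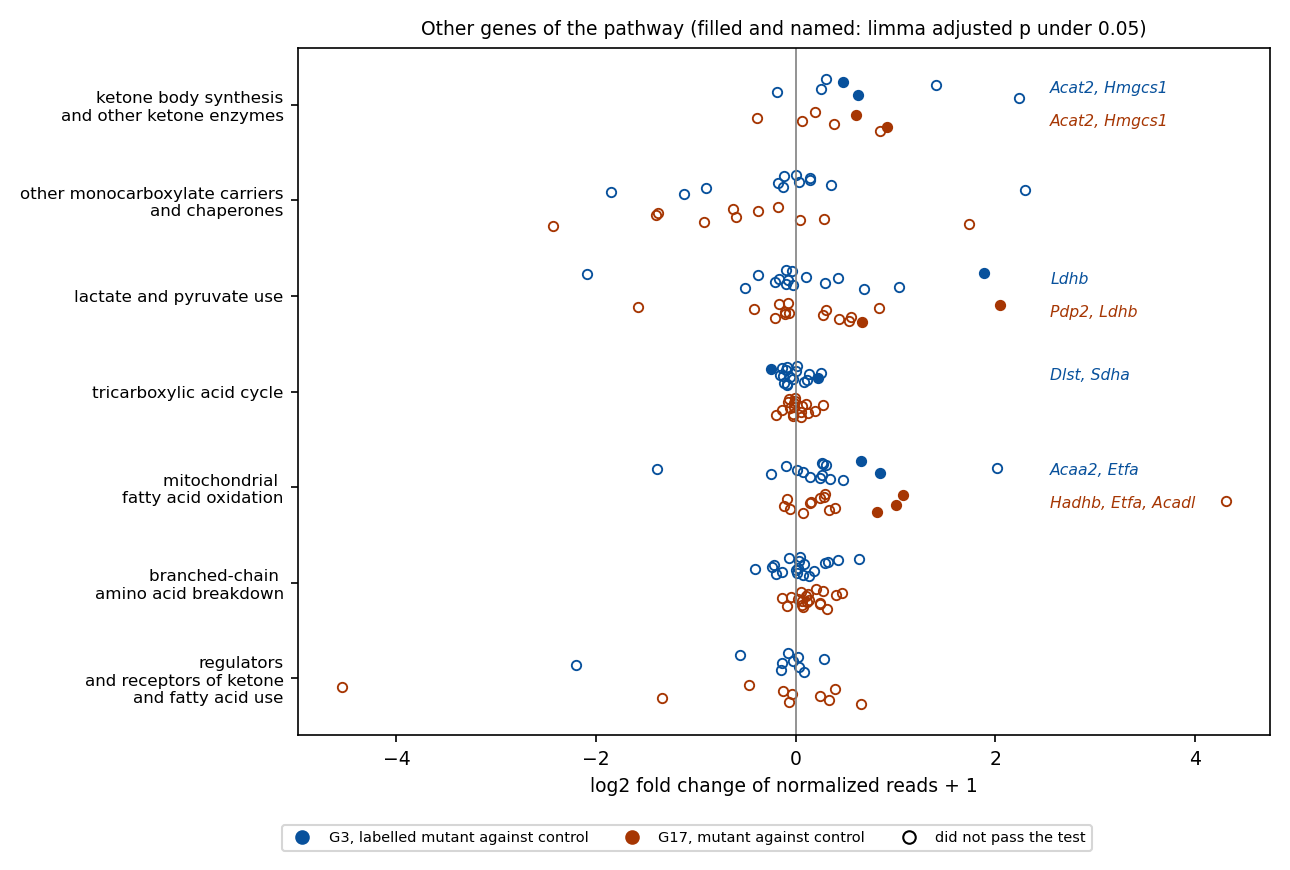
Log2 fold change (horizontal axis) of each tested gene of the 7 pathway lists (rows) in G3 and G17. Filled points and the names at the right are genes past the limma threshold; Ldhb at 1.89 in G3 and 2.05 in G17 lies farthest from 0 among them.

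Of 16 listed genes of mitochondrial fatty acid oxidation, 2 rose in G3 and 3 of 15 tested rose in G17, beside 2.35% and 1.87% of all tested genes. Etfa, the electron transfer flavoprotein subunit that takes electrons from acyl-CoA dehydrogenases, rose in both, from 1148 to 2067 normalized reads in G3 (limma, 0.85 ± 0.09 on the log2 scale, adjusted p = 0.000214) and from 1222 to 2454 in G17 (1.01 ± 0.15, adjusted p = 0.00387). Acadl, the long-chain acyl-CoA dehydrogenase, passed in G17 (limma, 1.08 ± 0.16, adjusted p = 0.00378), as did Hadhb, a subunit of the trifunctional protein (0.81 ± 0.17, adjusted p = 0.0215), and Acaa2, a thiolase, passed in G3 (0.65 ± 0.13, adjusted p = 0.0116). The Hadhb call was lost with either marker score and without mutant 36, 41 or 42, and the Acaa2 call without labelled mutant 29. The median over the list was 0.26 in G3 and 0.28 in G17.

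The cycle that receives the acetyl-CoA showed small differences. Of 18 genes of the tricarboxylic acid cycle, Sdha, a subunit of succinate dehydrogenase, was higher in G3 (limma, 0.22 ± 0.06, adjusted p = 0.0389) and Dlst, a subunit of 2-oxoglutarate dehydrogenase, was lower there (-0.24 ± 0.06, adjusted p = 0.0453), and 0 passed in G17. The Sdha call was lost with the yolk sac score added, with no filter on low values, and without control 16, 20 or 21 or labelled mutant 23, 29 or 31 and held in 10 of 18 alternatives, and the Dlst call was lost with the cardiomyocyte score added, with TMM factors, with no filter, and without any single control or labelled mutant 29, 30 or 31 and held in 8 of 18. Of 19 genes of branched-chain amino acid breakdown, 0 passed in either line, with medians of 0.03 and 0.11. Of 10 tested regulators and receptors 0 passed in either line. In G17 the lowest p among them was that of Esrrb, an estrogen-related receptor, with 131 to 176 normalized reads in controls and 0, 0, 33.3 and 60.1 in mutants (limma, adjusted p = 0.0768).

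Other carriers of the Slc16 family and their chaperones held 0 called genes of 12 in G3 and 0 of 11 in G17, with medians of -0.06 and -0.60. Slc16a9, a carnitine and monocarboxylate carrier, went from 252 ± 180 to 45.8 ± 26.1 normalized reads in G17 (limma, adjusted p = 0.0882) and was lower for the common effect (adjusted p = 0.0107). The highest Slc16a9 value, 496, was that of G17 control 29, and the common effect was not refitted with the yolk sac score. Emb, the chaperone embigin, had a log2 fold change of -0.63 in G17 (limma, adjusted p = 0.153) and, like Slc16a1, was highest in G17 control 29.

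The genes whose pattern was most like that of Oxct1 were taken by the Pearson correlation of log2 values over the 16 embryos, among 11340 other genes with at least 5 CPM (counts scaled to depth) on average. Centred within each line, the 5 highest were Trp53i11 at 0.98, Pcmtd1 at 0.96, and Prmt8, Add3 and Abtb2 at 0.95. The 5 lowest were Itga3 and Prtg at -0.94 and Tbc1d1, Phlda2 and Ccdc25 at -0.93. These points share the split into mutants and controls, so the values describe genes that follow it. Of the other members, Acat1 ranked 4933 at 0.05, Slc16a3 ranked 7642 at -0.26, and Slc16a1 ranked 11273 at -0.84, while Bdh1 and Bdh2 were below the level asked for.

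Centred within each of the 4 groups, which takes the genotype out, the order was as follows. Trip13 at 0.92, Fam204a and Gm6180 at 0.88, Mrpl32 at 0.85 and Tdgf1 at 0.84 were the highest, and Ubald1 at -0.89, Zfp395 at -0.88, Anapc11 at -0.87, Glg1 at -0.86 and Ddb1 at -0.85 the lowest. Only 1 gene stood at 0.9 or more. These are the extremes of an order of 11340 genes over 16 embryos, and they were not tested. Slc16a1 was at -0.53, Acat1 at -0.33 and Slc16a3 at -0.16. For Slc16a1 itself, taken in the same way after its values were seen, the highest were Car4 at 0.98, Cltc and Slc9a3r1 at 0.97, and Lrpap1 and Emb at 0.96. Acat1 ranked 298 for it at 0.78.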

How the data were processed

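RNA of 16 embryos was sequenced with paired-end reads, per the labels' protocols; per the submitters' processing notes HISAT2, featureCounts of Subread, DESeq2 and the build GRCm38 were used. Each line has its own deposited table of a signal per gene and embryo, reads divided by a size factor (the authors' normalized reads), with the authors' p-value and adjusted p-value per gene. Whole reads were recovered from these values for 99.9% to 100% of genes in each library, within a tolerance of 0.01. The members and the gene lists were chosen with earlier results of these data known.

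The test was limma 3.58.1 with a mean-variance trend in R 4.3.3 on log2(deposited value + 1), over genes with at least 10 normalized reads in at least 4 embryos of the fit, with Benjamini-Hochberg adjustment and a threshold of 0.05. Each line was fitted alone; the common effect and the line difference used all 16 embryos with a term for the line; the controls were compared after scaling their recovered reads together. Alternatives were edgeR 4.0.16 and DESeq2 1.42.0 on recovered reads, TMM factors, the authors' table, no filter or one of 5 CPM, pseudocounts of 0.1 and 5, marker scores as terms and each embryo left out. All of these were run for the fits of single lines. The control comparison was run without the authors' table, the 5 CPM filter and the marker scores. The common effect had only TMM factors, no filter and the pseudocounts, and the line difference had no alternative. The test scripts were tested on simulated data. RPKM used GENCODE M21 exon lengths (48144 of 48526 IDs matched). Of 120 pairs of libraries 0 were alike within sampling noise. Limits from a count of 0 are 3 reads and cover counting error only.

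Named were all members, up to 3 genes with the smallest p of each list and line, and the likeness lists. Named after their values were seen were BC037032, the neighbours of the members, Cpt1a, Emb as a gene like Slc16a1, and the genes most like Slc16a1. Promoter windows are from RefSeq; protein sequences were not used here.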

Additional observations from a re-analysis of the deposited data

Results flagged for a closer look

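The log2 fold change of Oxct1 was larger in G17 than in G3 by 1.57, and it belonged with the 2 genes past the threshold for that difference. Oxct1 was chosen with this known, so the value is a description.

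In 4 of 52 groups of 4 values checked, 1 embryo stood far from the other 3 for the width of its group, where chance gives about 1 in 20. Slc16a3 was lowest in G17 mutant 33, at 11744 normalized reads. The summed cardiomyocyte markers reached 262938 normalized reads in 1 G3 control. The summed endothelium markers were lowest in 1 G17 control, at 13924, and the summed hepatocyte markers were highest in 1 G17 mutant, at 1316. Albumin (Alb) and Cyp3a11, which define hepatocytes, had under 10 normalized reads in every embryo.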

How the results depend on the processing

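Oxct1 kept its direction and its side of the threshold in 18 of 18 alternatives in each line. The log2 fold changes were 1.09 to 1.21 in G3 and 2.42 to 2.84 in G17. The lowest value came with 1 embryo left out in G3 and with the yolk sac score added in G17. With 1 embryo left out Oxct1 stood at 2.56 to 2.84 in G17. Its difference between the control groups, -0.15, was -0.26 to 0.0212 with 1 embryo left out and turned positive, at 0.0212, without G17 control 29. Genes called in G3, 717, were 1281 with DESeq2, 286 with the yolk sac score added and 339 to 885 with 1 embryo left out, of which 447 without control 16, 456 without labelled mutant 23, 339 without 29 and 420 without 30. Genes called in G17, 537, were 1072 with DESeq2, 139 with the yolk sac score, 202 with the cardiomyocyte score and 219 to 630 with 1 embryo left out, of which 282 and 317 without controls 35 and 37 and 246, 277 and 219 without mutants 36, 41 and 42. Pathway genes called, 7 in each line, were 11 in G3 and 12 in G17 with DESeq2, 4 and 3 with the yolk sac score, and 4 to 7 and 5 to 8 with 1 embryo left out; in G3 4 were called without control 16 and 4 without labelled mutant 29. Between controls 0 genes were called, and 47 with DESeq2. With the yolk sac score added Acat1 moved to 0.27 in G3 and 0.90 in G17, and Slc16a3 to -0.44 in G17. BC037032, whose alternatives were added after its values were seen, passed without a filter (adjusted p = 0.0217 in G3 and 0.0377 in G17); DESeq2 gave it no adjusted p, and with a mutant left out it fell below the filter. The cause of these shifts was not tested. No analysis paired by litter was possible because the labels do not give the litter of each embryo. Bdh2 and BC037032 have few reads, which limits their precision.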

Other observations

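Of 100 tested genes within 500 kb of the members, 3 were called in G3, beside 3.98% of all tested genes, and 0 of 93 in G17. Mov10, an RNA helicase gene near Slc16a1, was higher in G3 labelled mutants (limma, log2 fold change 0.85 ± 0.18, adjusted p = 0.0193), Ddx10 near Acat1 was lower there (-0.31, adjusted p = 0.0289) and Mrpl12 near Slc16a3 was lower there (-0.37, adjusted p = 0.0103). Cpt1a, the carnitine palmitoyltransferase that lets fatty acids into mitochondria, had 0 to 129 normalized reads in G17 controls and 247 to 472 in G17 mutants without overlap, as for 9.93% of tested genes, and missed the threshold there (limma, adjusted p = 0.0684). In G3 the groups overlapped, with 0 to 62.5 normalized reads in controls and 21.7 to 133 in labelled mutants. Cpt1a was called higher for the common effect (limma, log2 fold change 3.16, adjusted p = 0.0323), a call lost with a pseudocount of 0.1 and with no filter on low values. That fold change ran from 2.51 to 4.01 over the alternatives, and G3 control 21 and G17 control 37 had 0 reads.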
